A study of Mus musculus with 6 samples.

Results

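The genes described here encode the subunits of nicotinic acetylcholine receptors, read in bulk RNA-seq of mouse corneal epithelial cells. They were taken as every row of the expression table whose symbol begins with *Chrn* followed by a, b, d, e or g. This gave 13 of the 17784 listed genes, among them 7 α subunits (*Chrna1*, *Chrna2*, *Chrna3*, *Chrna5*, *Chrna6*, *Chrna9* and *Chrna10*), 4 β subunits (*Chrnb1* to *Chrnb4*) and the δ and ε subunits *Chrnd* and *Chrne*. *Chrna4*, *Chrna7* and *Chrng* were not analysed here. A subunit was counted as detected at 10 or more expected counts in any sample, which 6 of the 13 reached and 7 did not. The members were selected on their symbols, but the family itself was chosen by a measured value, the low count of *Chrnb3* in the *Ptch1*-ablated samples. The values of *Chrnb3* are therefore given as a description. The gene was part of the test over all genes, but its call there supports nothing. The detection minimum fell between *Chrna6* and *Chrna2* just inside it, with highest counts of 12 and 13, and *Chrnb4* just outside it, with a highest count of 7.63.

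The study asked how Hedgehog activation in the stroma alters the overlying epithelium. The 3 samples labelled KO came from *Prrx1-CreERT;Ptch1f/f* mice, called *Ptch1*-ablated below, and the 3 labelled WT came from control mice, whose genotype is given in the labels only as ctrl. The labels give an age of 10 weeks, 3 doses of tamoxifen and an interval of 2 months for both groups, and the epithelium was separated from the cornea with EDTA. *Prrx1-CreERT* is a knock-in recombinase activated by tamoxifen. It acts in keratocytes and other ocular mesenchymal cells, including the corneal endothelium, so the deletion was directed at cells beneath the epithelium. How many animals or corneas went into a sample is not given. Library totals, in expected counts, were 20550100, 20415942 and 20464519 for controls (replicates 1, 2 and 3). The *Ptch1*-ablated libraries held 20625813, 20352869 and 20296741. The epithelial identity of the samples was clear from *Krt12*, the keratin of differentiated corneal epithelium, at 44025 to 48396 TPM in controls and 37107 to 49487 TPM in *Ptch1*-ablated samples. *Ptch1* itself had 520, 670 and 703 counts in controls and 377, 434 and 473 in *Ptch1*-ablated samples (log2 fold change -0.51, edgeR adjusted p = 0.0401, too small to be called). This does not check the labels because the epithelium was not the targeted layer. On the first principal component of all tested genes, with 55.3% of the variance, *Ptch1*-ablated replicate 1 lay apart at 55.5, against 19.8 and 20.8 for replicates 2 and 3 and -35.8 to -28.0 for controls. Control replicate 3 stood apart in some of the keratocyte markers, mostly *Col1a2*, as described with the marker genes. Values without these samples are given for the detected subunits and for *Gabrb2*.

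Nicotinic receptors are ion channels made of several subunits arranged around a cation pore, opened by acetylcholine. They belong to the Cys-loop family, together with GABA-A, glycine and serotonin type 3 receptors. The acetylcholine site lies at the face of an α subunit that carries a pair of adjacent cysteines, whereas most β subunits form the opposite face of the site. *Chrnb3* and *Chrna5* encode accessory subunits, which join receptors without forming the usual binding site themselves. The β3 subunit is best known from midbrain dopamine neurons and retina, where it assembles with α6. The muscle receptor uses α1, β1, δ and ε, or γ before birth. Keratinocytes and corneal epithelial cells also make nicotinic receptors, and acetylcholine is made outside the nervous system.

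The loop that names the family is a run of 13 residues between cysteines joined by a disulfide bridge. Its codons are shown for the 6 detected subunits because they mark each transcript as a family member and show how far the sequences differ. They were read from GENCODE M21 coding sequences on GRCm38, not on the build of the count table, and run 5′ to 3′ with the cysteine codons in capitals.

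Chrnb3: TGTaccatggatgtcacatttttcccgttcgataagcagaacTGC
Chrna6: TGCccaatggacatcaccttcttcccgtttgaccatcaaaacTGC
Chrnb1: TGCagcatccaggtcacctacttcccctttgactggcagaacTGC
Chrnb2: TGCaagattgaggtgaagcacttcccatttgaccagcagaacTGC
Chrna1: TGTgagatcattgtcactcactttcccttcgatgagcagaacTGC
Chrna2: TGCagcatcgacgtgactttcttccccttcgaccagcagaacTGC

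All of these stretches lie in coding exons. That of *Chrnb3* spans bases 475 to 519 of a coding sequence of 1392 bases in 6 exons, and that of *Chrna6* spans bases 472 to 516 of 1482 bases in 6 exons. The adjacent cysteine pair followed the loop in 7 of the 7 α subunits and in none of the β, δ and ε subunits, as the coding sequences show. It is printed for the detected α subunits, with the paired codons in capitals.

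Chrna6: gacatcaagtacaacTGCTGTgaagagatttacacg
Chrna1: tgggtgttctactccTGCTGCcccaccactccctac
Chrna2: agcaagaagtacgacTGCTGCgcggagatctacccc

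Over aligned bases, the coding sequence closest to *Chrnb3* was that of the other accessory subunit, *Chrna5*, at 69.6% identity. The closest pair of the family was *Chrnb2* and *Chrnb4* at 74.8%. The longest exact run shared by any pair was 33 bases. RSEM had divided reads between genes for *Chrna1* and *Chrnb4*, whose counts were not whole in 6 of 6 samples, while the counts of *Chrnb3*, *Chrna6*, *Chrnb1* and *Chrnb2* were whole in every sample.

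*Chrnb3* was the most abundant subunit transcript in control epithelium and the third most abundant, at a much lower level, after *Ptch1* ablation. It had 256, 265 and 98 counts in control replicates 1, 2 and 3, and 1, 12 and 20 counts in *Ptch1*-ablated replicates 1, 2 and 3. Per length, these were 6.95, 6.93 and 2.84 TPM against 0.02, 0.52 and 0.65 TPM. Every *Ptch1*-ablated sample lay below every control sample, with control replicate 3 the lowest control and *Ptch1*-ablated replicate 1 close to 0. Normalized counts, which are counts scaled to a common library size, were 203 ± 93.8 (SD, n = 3) in controls and 11.1 ± 9.5 (SD, n = 3) in *Ptch1*-ablated samples. The log2 fold change was -4.17 with a standard error of 0.66, the lowest of the 12999 genes tested in this fit. It was -3.64 without *Ptch1*-ablated replicate 1 and -4.51 without control replicate 3. *Chrnb3* ranked above 45.3% of the listed genes in mean control TPM and above 26.6% in *Ptch1*-ablated samples. In bulk samples, fewer cells that make a transcript and less transcript per cell cannot be told apart.

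**Figure D1:**
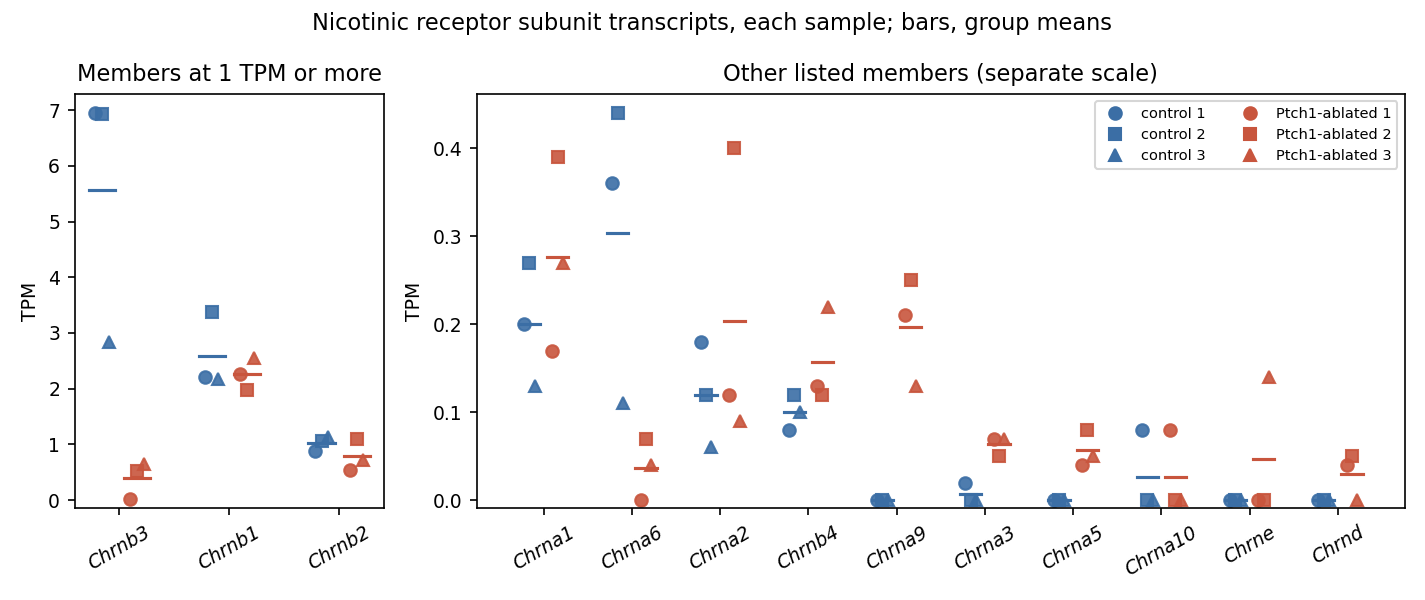
TPM of the 13 listed nicotinic subunits in each of 3 control samples (blue) and 3 *Ptch1*-ablated samples (red), with symbols for replicates 1 to 3 and horizontal bars at group means. The left panel holds the 3 subunits that reached 1 TPM and the right panel the others on their own scale. *Chrnb3* lies at 2.84 to 6.95 TPM in controls and at most 0.65 TPM in *Ptch1*-ablated samples, while *Chrnb1* and *Chrnb2* overlap between groups.

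*Chrna6*, the usual partner of β3, also had groups that did not overlap, but it reached the detection minimum through control replicates 1 and 2 alone, so its place among the detected subunits depends on the group where it was higher. It had 10, 12 and 3 counts in controls and 0, 2 and 1 in *Ptch1*-ablated samples. The order within controls was that of *Chrnb3*, with replicate 3 lowest. Within *Ptch1*-ablated samples the order differed, with replicate 2 highest for *Chrna6* and replicate 3 highest for *Chrnb3*. These orders rest on few counts of *Chrna6*. *Chrna6* did not pass the filter on low counts. With no filter beyond 1 count, its log2 fold change was -2.87 (edgeR adjusted p = 0.0825, quasi-likelihood), so a difference was not called. The log2 ratio of mean normalized counts of *Chrna6* was -3.02. It was -2.43 without *Ptch1*-ablated replicate 1, -4.04 without *Ptch1*-ablated replicate 2 and -3.42 without control replicate 3. Among all genes with at least 1 count, the *Ptch1*-ablated samples lay entirely below the controls for 19.5%. *Chrna6* and *Chrnb3* are adjacent protein-coding genes on chromosome 8 in the RefSeq table. The flanking genes were barely read, with at most 1 count of *Tex24* beyond *Chrnb3* and 3.37, 2 and 1 counts of *Poteg* in controls against 0 in every *Ptch1*-ablated sample beyond *Chrna6*.

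No difference larger than the sample spread was seen for the other detected β subunits. *Chrnb1*, the β subunit of the muscle receptor, had 42, 63 and 43 counts in controls and 43, 36 and 48 in *Ptch1*-ablated samples. The groups overlapped, and the log2 fold change was -0.17 with a 95% interval from -0.73 to 0.39 (adjusted p = 0.661, edgeR's quasi-likelihood test). Its direction turned without control replicate 2, to 0.043. It was -0.19 without *Ptch1*-ablated replicate 1, -0.07 without *Ptch1*-ablated replicate 2, and -0.27 without control replicate 1 or control replicate 3. *Chrnb2*, which pairs with α4 in the main receptor type of the brain, had 47, 54 and 59 counts in controls and 29, 55 and 36 in *Ptch1*-ablated samples. Replicate 2 of the *Ptch1*-ablated group lay within the control range. The log2 fold change was -0.36 with an interval from -0.997 to 0.28 (edgeR adjusted p = 0.393). It was -0.18 without *Ptch1*-ablated replicate 1, -0.29 without control replicate 3 and -0.67 without *Ptch1*-ablated replicate 2 (edgeR adjusted p = 0.137), the sample that lay within the control range. *Chrnb2* overlaps *Adar* in the RefSeq table, and because strandedness is not stated, reads in the overlap cannot be assigned with certainty. The counts of both genes were whole in every sample, so no division of reads between them showed.

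The detected α subunits other than *Chrna6* were close to the detection limit. *Chrna1*, the α subunit of the muscle receptor, had 8.39, 11.01 and 5.27 expected counts in controls and 7.13, 15.8 and 10.5 in *Ptch1*-ablated samples. These overlapped, with a log2 fold change of 0.55 and an interval from -0.51 to 1.60 (adjusted p = 0.434, edgeR's quasi-likelihood test). Leaving out 1 sample moved it between 0.21, without *Ptch1*-ablated replicate 2, and 0.84, without control replicate 2. It was 0.79 without *Ptch1*-ablated replicate 1 and 0.29 without control replicate 3. *Chrna2*, a neuronal α subunit, had 6, 4 and 2 counts in controls and 4, 13 and 3 in *Ptch1*-ablated samples, and only *Ptch1*-ablated replicate 2 reached 10. *Chrna2* did not pass the filter on low counts, and with no filter beyond 1 count its log2 fold change was 0.77 (edgeR adjusted p = 0.536, quasi-likelihood). Its log2 ratio of mean normalized counts was 0.79, against 1.05 without *Ptch1*-ablated replicate 1, 1.22 without control replicate 1, 0.46 without control replicate 3 and -0.15 without *Ptch1*-ablated replicate 2. In all, 4 of the 13 subunits passed the filter, and apart from *Chrnb3*, 0 of the other 3 met the call rule of an adjusted p of at most 0.05 and a change of at least 1 log2 unit in either direction. The groups of these 3 overlapped, in expected and in normalized counts. Among all tested genes, in normalized counts, 39.9% did not overlap, 20.3% with every *Ptch1*-ablated sample lower and 19.7% with every one higher. Of all 12999 tested genes, 3.23% were called, 2.34% upward and 0.892% downward. *Chrnb3* is left out of the count because its values chose the family. The median log2 fold change of all tested genes was -0.01. With 3 samples a group, 0.1 is the smallest p that an exact permutation test can reach, and none was run on single genes.

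**Figure D2:**
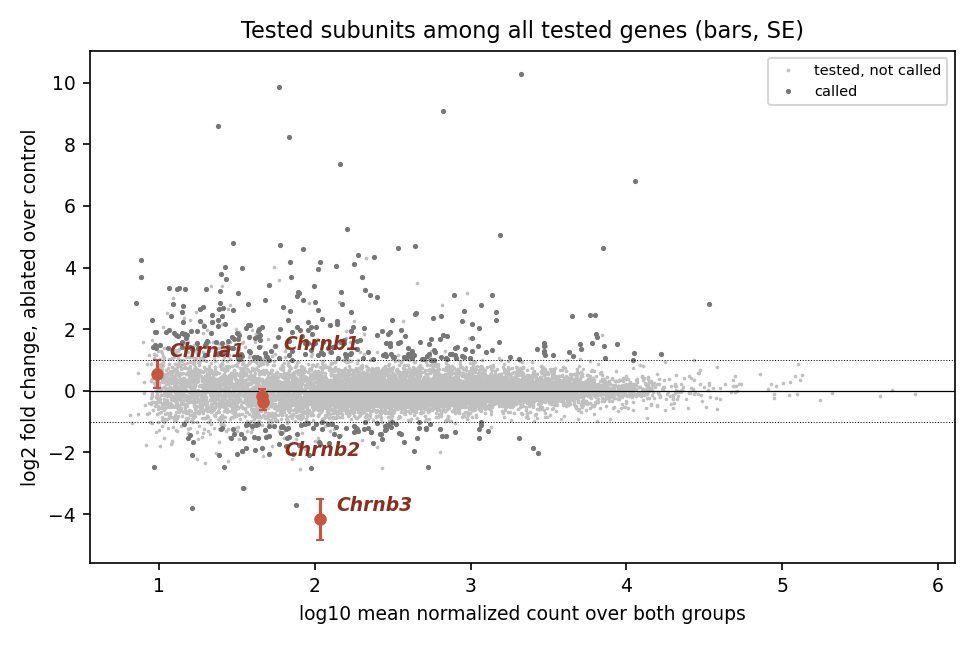
Log2 fold change of *Ptch1*-ablated over control samples against the log10 mean normalized count for 12999 tested genes (light grey, not called; dark grey, called), with the 4 tested subunits in red and bars of 1 standard error. *Chrnb3* lies at -4.17, below the cloud, whereas *Chrna1*, *Chrnb1* and *Chrnb2* lie between the dotted lines at 1 and -1.

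The 7 subunits below the detection minimum had at most 7.63 expected counts in any sample. *Chrna9*, a subunit known from cochlear hair cells and from keratinocytes, had 0 counts in every control sample and 4, 4 and 2 in *Ptch1*-ablated samples. A count of 0 over the control group allows up to 3 counts, against 10 counts over the *Ptch1*-ablated group, a limit that covers counting error only. The neighbouring genes *Chrna5*, *Chrna3* and *Chrnb4* on chromosome 9 encode subunits of the ganglionic receptor. *Chrna3* had 1, 0 and 0 counts in controls and 3, 2 and 3 in *Ptch1*-ablated samples. *Chrnb4* had 2.55, 4.26 and 3.34 expected counts in controls and 4.34, 4.29 and 7.63 in *Ptch1*-ablated samples, where the nearest values differed by a small part of 1 count. *Chrna5* had 0 counts in controls and 1, 2 and 1.15 in *Ptch1*-ablated samples. The 3 genes together had 3.55, 4.26 and 3.34 counts in controls and 8.34, 8.29 and 11.8 in *Ptch1*-ablated samples, so the groups did not overlap at a level that the detection minimum excludes. With no filter beyond 1 count, edgeR gave adjusted p-values (quasi-likelihood) of 0.0704 for *Chrna9*, 0.161 for *Chrna3*, 0.190 for *Chrna5* and 0.487 for *Chrnb4*. Among all genes with at least 1 count, the *Ptch1*-ablated samples lay entirely above the controls for 13.0%. *Chrna10* had 2 counts in replicate 1 of each group and 0 elsewhere. *Chrnd* had 0 counts in controls and 1.21, 1.32 and 0 in *Ptch1*-ablated samples, and *Chrne* had 2 counts in *Ptch1*-ablated replicate 3 alone.

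Summed over the 13 subunits, nicotinic transcripts made up 10.96, 12.3 and 6.56 TPM in controls and 3.69, 4.99 and 4.95 TPM in *Ptch1*-ablated samples. *Chrnb3* held 63.4%, 56.3% and 43.3% of the sum in controls, against 0.542%, 10.4% and 13.1% in *Ptch1*-ablated samples. Without *Chrnb3* the sums were 4.01, 5.38 and 3.72 TPM in controls and 3.67, 4.47 and 4.3 TPM in *Ptch1*-ablated samples, and the groups overlapped. *Chrnb1* came first in *Ptch1*-ablated epithelium with 50.8 ± 10.9% (SD, n = 3) of the summed TPM, against 26.9 ± 6.55% (SD, n = 3) in controls. In TPM, the order of mean levels in controls was *Chrnb3* (5.57 ± 2.37, SD, n = 3), *Chrnb1* (2.59 ± 0.679), *Chrnb2* (1.03 ± 0.133) and *Chrna6* (0.303 ± 0.172). *Chrnb1* and *Chrnb2* were separate from each other in controls, as were *Chrnb2* and *Chrna6*. *Chrnb3* and *Chrnb1* overlapped there, since control replicate 3 had less *Chrnb3* than control replicate 2 had *Chrnb1*. In *Ptch1*-ablated samples the order was *Chrnb1* (2.26 ± 0.295 TPM), *Chrnb2* (0.790 ± 0.275), *Chrnb3* (0.397 ± 0.333) and *Chrna1* (0.277 ± 0.110). Of these, *Chrnb1* was above *Chrnb2* in every sample, whereas the ranges of *Chrnb2* and *Chrnb3*, and those of *Chrnb3* and *Chrna1*, overlapped. The α subunits together stayed at 0.300 to 0.840 TPM in controls and 0.650 to 1.24 TPM in *Ptch1*-ablated samples.

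**Figure D3:**
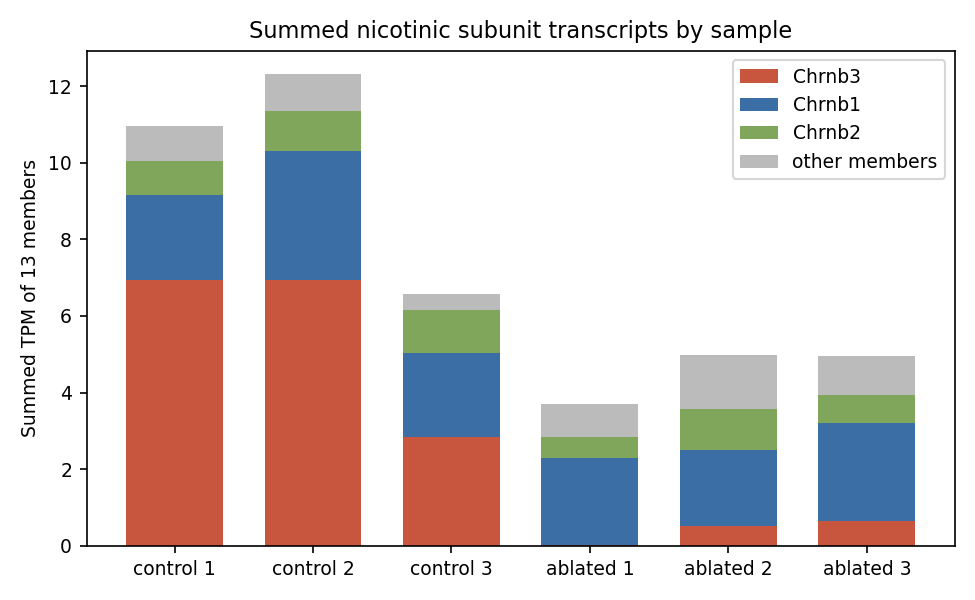
Stacked bars of TPM summed over the 13 listed subunits in each sample, from 0, with *Chrnb3*, *Chrnb1*, *Chrnb2* and the other members in separate colours. The *Chrnb3* segment takes 43.3% to 63.4% of the bar in controls and at most 13.1% in *Ptch1*-ablated samples, while the remainder stays between 3.67 and 5.38 TPM in all 6 samples.

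Genes of cholinergic signalling and of the other Cys-loop receptors were read from 7 lists chosen with earlier results of these data known. Of their 67 genes, 55 were listed and 24 tested, and 0 of the 24 were called by edgeR, against the 3.23% of all tested genes. DESeq2 called 1, the GABA-A subunit gene *Gabrb2*, and limma-voom called 0. An unadjusted p under 0.05 was reached by 7 of the 24, against 33.5% of all tested genes. An adjusted p of at most 0.05 at any size of change was reached by 2, *Slc44a1* and *Psca*, against 14.0% of all tested genes. The median log2 fold change was -0.04.

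Acetylcholine supply showed no called gene among 5 tested. *Chat*, the synthetic enzyme of cholinergic neurons, had 1.36 counts in control replicate 1 and 0 in the other 5 samples. *Crat*, carnitine acetyltransferase, had 21.8 ± 1.43 TPM (SD, n = 3) in controls and 18.6 ± 3.01 TPM (SD, n = 3) in *Ptch1*-ablated samples. The choline transporter gene *Slc44a1* stood at 51.0, 50.8 and 55.7 TPM in controls and 59.0, 61.1 and 64.0 TPM in *Ptch1*-ablated samples. Its groups did not overlap, and its change of 0.24 log2 units (adjusted p = 0.0359, edgeR's quasi-likelihood test, standard error 0.06) was below the size required. It passed 0.05 in none of the 6 fits that left out 1 sample. The related *Slc44a2* was at 146, 166 and 155 TPM in controls and 115, 126 and 143 TPM in *Ptch1*-ablated samples (edgeR adjusted p = 0.0613, log2 fold change -0.25). *Slc44a4*, at 23.8 to 36.3 TPM in controls and 28.6 to 40.1 TPM in *Ptch1*-ablated samples, overlapped. *Slc44a3*, another member of the transporter family, had 28, 36 and 37 counts in controls and 14, 18 and 22 in *Ptch1*-ablated samples, which did not overlap (log2 fold change -0.85, edgeR adjusted p = 0.0702). It was below 10 TPM and was named after its values were seen.

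Enzymes that break acetylcholine down were scarce. *Ache*, acetylcholinesterase, had 7, 10.0 and 13 counts in controls and 5, 4 and 6.63 in *Ptch1*-ablated samples, and was not tested. *Bche* had at most 1 count in any sample. The 1 tested gene of the 4 in this list, *Prima1*, which anchors acetylcholinesterase to membranes, was not called. The muscarinic receptors, which signal through G proteins, had 1 tested gene, *Chrm3*, which was not called, and their summed level was 0.57 to 0.70 TPM in controls and 0.27 to 0.91 TPM in *Ptch1*-ablated samples.

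Transcripts of the Ly6 family, whose products are small GPI-anchored or secreted proteins that bind nicotinic receptors, were far more abundant than the subunit transcripts, with a summed level of 10577 to 11206 TPM in controls and 11280 to 12328 TPM in *Ptch1*-ablated samples. All 9 listed members were tested and 0 were called. *Psca*, a GPI-anchored member, had 5578, 5441 and 5330 TPM in controls and 7322, 7084 and 7643 TPM in *Ptch1*-ablated samples. Every *Ptch1*-ablated sample exceeded every control, by 0.47 log2 units (adjusted p = 0.0148, edgeR's quasi-likelihood test, standard error 0.08), a change that was smaller than the call rule requires. Without control replicate 2 or control replicate 3 the adjusted p of *Psca* from edgeR was 0.0869 or 0.0524. *Slurp1*, a secreted ligand that is abundant in cornea, had 4468, 3558 and 2910 TPM in controls and 2489, 3461 and 2012 TPM in *Ptch1*-ablated samples. Its groups overlapped (edgeR adjusted p = 0.258, log2 fold change -0.42). *Lynx1* (124.9 ± 11.6 and 119.7 ± 20.9 TPM, SD, n = 3) and *Ly6e* (1451 ± 610 and 1578 ± 355 TPM) overlapped between controls and *Ptch1*-ablated samples. *Ly6g6e* (91.7 ± 1.53 and 86.6 ± 3.15 TPM, SD, n = 3) was lower in every *Ptch1*-ablated sample in TPM but overlapped in counts, with an adjusted p of 0.753 from edgeR. *Lypd6b* was lower in every *Ptch1*-ablated sample, at 11.2 ± 1.76 against 8.44 ± 0.372 TPM (SD, n = 3), with an adjusted p of 0.102 from edgeR.

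Of the chaperones, *Ric3*, which helps receptors assemble, and *Ubxn2a*, which affects turnover of α3 receptors, were tested and not called. *Ubxn2a* was at 31.7 ± 1.75 TPM (SD, n = 3) in controls and 34.8 ± 2.17 TPM (SD, n = 3) in *Ptch1*-ablated samples. *Agrn* and *Lrp4*, agrin and its receptor, organize nicotinic receptors at the neuromuscular endplate. *Agrn* was at 81.5 ± 12.2 and 70.4 ± 20.3 TPM and *Lrp4* at 14.9 ± 1.63 and 14.3 ± 3.57 TPM in controls and *Ptch1*-ablated samples (SD, n = 3), and neither was called. The other Cys-loop receptors, with 19 of 26 genes listed, had 4 tested and 0 called. *Gabrb2*, a GABA-A receptor subunit chosen after its values were seen, had 15, 14 and 27 counts in controls and 31, 66 and 42 in *Ptch1*-ablated samples. The groups did not overlap (log2 fold change 1.36, adjusted p = 0.0548, edgeR's quasi-likelihood test). *Gabrp*, another GABA-A subunit, had 3, 0 and 16 counts in controls and 43, 15 and 31 in *Ptch1*-ablated samples, which overlapped (log2 fold change 2.26, edgeR adjusted p = 0.111). It was 4.24 for *Gabrp* without control replicate 3 (edgeR adjusted p = 0.0507) and 1.69 without control replicate 2, and was called in neither fit. *Gabrb1* had 2, 2 and 1 counts against 11, 10 and 3, with no overlap, and did not pass the filter on low counts. Without *Ptch1*-ablated replicate 3 it passed the filter and was called upward. *Gabrp* and *Gabrb1* were likewise chosen after their values were seen. *Gabrb2* was called without *Ptch1*-ablated replicate 1 (1.58, edgeR adjusted p = 0.0455) and not without control replicate 3 (1.71, edgeR adjusted p = 0.0623).

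**Figure D4:**
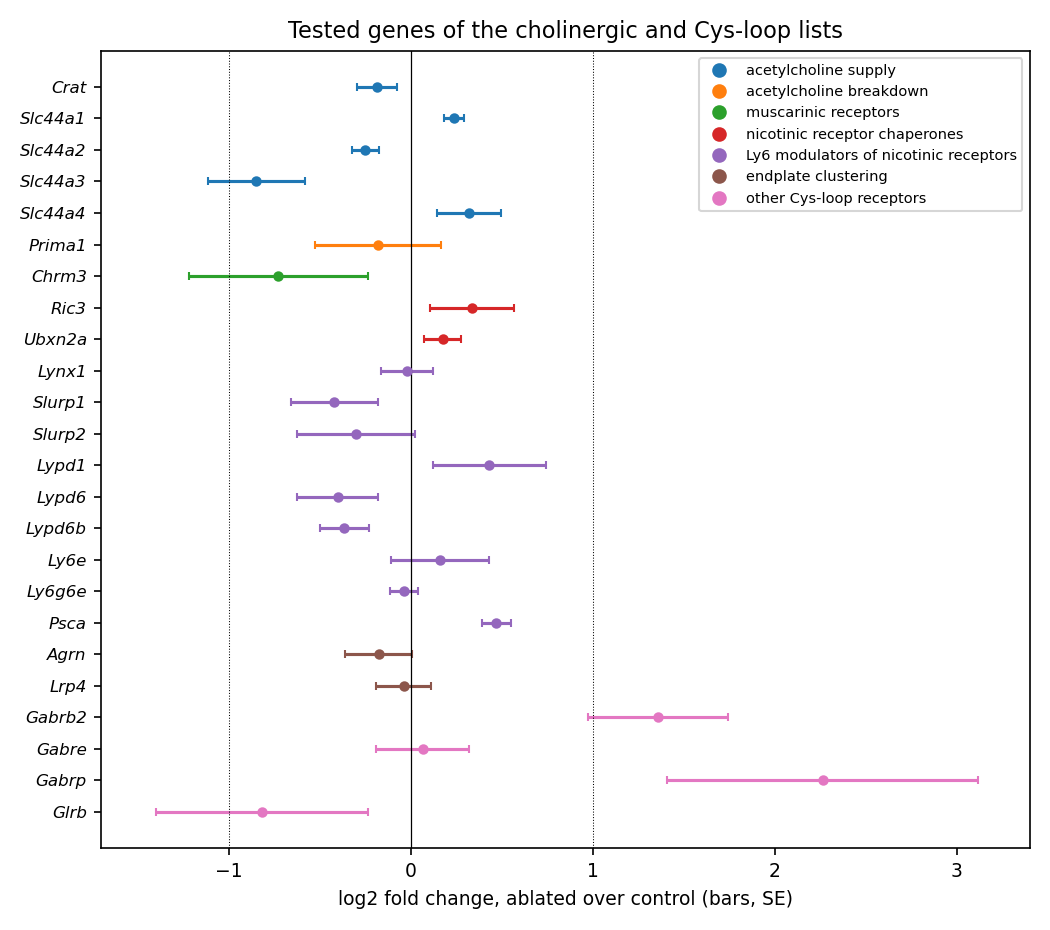
Log2 fold change of *Ptch1*-ablated over control samples with bars of 1 standard error for the 24 tested genes of the 7 cholinergic and Cys-loop lists, coloured by list. Dotted lines mark -1 and 1. *Psca* lies at 0.47 with a narrow bar, and *Gabrb2*, at 1.36, and *Gabrp*, at 2.26, lie beyond 1 without being called.

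The genes whose log2 CPM followed that of *Chrnb3* most closely over the 6 samples were *Map9*, *Agap1*, *Dnaja4*, *Mvb12a* and *Ccdc142*. Pearson's r lay between 0.995 and 0.998 among 10322 candidates whose mean normalized count reached 100, and is a description only, since the 6 points fall into 2 groups. *Map9*, a microtubule-associated protein gene, had 174, 173 and 140 counts in controls and 58, 95 and 103 in *Ptch1*-ablated samples. *Dnaja4*, which encodes a co-chaperone of heat shock protein 70, had 1675, 1665 and 1543 counts in controls and 835, 1071 and 1242 in *Ptch1*-ablated samples. In each of the 5 genes *Ptch1*-ablated replicate 1 was the lowest, as for *Chrnb3*, but genes chosen by likeness would share this, so it adds nothing. Their log2 fold changes, from -0.88 to -0.26, were much smaller than that of *Chrnb3*.

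Of the 8 tested genes beside the detected subunits on the chromosome, 2 were called, both downward, against 3.23% called and 0.892% called downward among all tested genes. *Chn1*, which encodes a chimaerin and lies beside *Chrna1*, had 170, 166 and 117 counts in controls and 14.4, 43.7 and 46.0 in *Ptch1*-ablated samples. This was a change of -2.07 log2 units (adjusted p = 0.0191, edgeR's quasi-likelihood test, standard error 0.38), while *Chrna1* was not called. *Fgf11*, a fibroblast growth factor homologous factor gene beside *Chrnb1*, had 47.0, 44.0 and 40.2 counts in controls and 14.9, 9.63 and 19.0 in *Ptch1*-ablated samples. The change was -1.52 log2 units (edgeR adjusted p = 0.0191, standard error 0.28), while *Chrnb1* was not called. *Wipf1*, *Ephx2*, *Ptk2b*, *Zbtb4*, *Adar* and *Ube2q1* were not called.

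Marker lists of neuron, retina and skeletal muscle, where nicotinic receptors are best known, were read first. The neuron list, with 10 of 13 genes listed, summed to 0.5, 0.180 and 0.510 TPM in controls and 2.87, 1.59 and 1.28 TPM in *Ptch1*-ablated samples. Its most abundant gene was *Tubb3*, at 0.280, 0 and 0.170 TPM in controls and 2.37, 0.800 and 0.780 TPM in *Ptch1*-ablated samples (log2 fold change 3.00, adjusted p = 0.0512, edgeR's quasi-likelihood test). The other members, none of them tested, went both ways. *Snap25*, the other detected member, had 1, 1.01 and 1.21 counts in controls and 0, 12.1 and 6.33 in *Ptch1*-ablated samples. *Syt1* had 4, 2 and 4 counts in controls and 0 in every *Ptch1*-ablated sample. *Elavl4* had at most 1 count in controls and 0 in *Ptch1*-ablated samples. *Stmn2*, *Gap43*, *Prph* and *Nefm* had 0 counts in every control sample and at most 4 in any *Ptch1*-ablated sample. The retina list summed to 18.4, 23.4 and 28.2 TPM in controls and 53.8, 34.0 and 45.3 TPM in *Ptch1*-ablated samples. Most of it was *Rbpms*, which was called upward with *Gnat1* (log2 fold changes 1.04 and 1.40). No gene of the skeletal muscle list was detected.

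The summed level of the chemosensory and tuft cell list was 15.04, 13.7 and 12.9 TPM in controls and 8.48, 9.56 and 8.95 TPM in *Ptch1*-ablated samples. Nearly all of it was *Pou2f3*, at 11.7 to 14.6 TPM in controls and 7.15 to 8.39 TPM in *Ptch1*-ablated samples (log2 fold change -0.67, adjusted p = 0.0192, edgeR's quasi-likelihood test), while *Trpm5* and *Gnat3*, which mark these cells, had at most 1 count in any sample. *Avil*, the other tested gene of that list, had 13, 26 and 20 counts in controls and 37, 31 and 17 in *Ptch1*-ablated samples, which overlapped. Of the Merkel cell list, *Piezo2* had the highest mean over all 6 samples, at 6.33, 15.1 and 8.77 TPM in controls and 0.310, 6.71 and 0.300 TPM in *Ptch1*-ablated samples, and the groups overlapped. *Krt18* of the same list exceeded it in control replicate 1 and in *Ptch1*-ablated replicates 1 and 3, with 6.41, 3.73 and 4.37 TPM in controls and 8.20, 5.09 and 8.68 TPM in *Ptch1*-ablated samples. *Krt20* had 10, 4 and 14 counts in controls and 31, 31 and 14 in *Ptch1*-ablated samples, and 0 genes of the list were called. Keratocyte markers summed to 34.4 TPM in control replicate 3, mostly *Col1a2*, against 2.24 to 6.06 TPM in the other 5 samples. *Col1a2*, *Prrx1*, *Col5a1*, *Col1a1* and *Col3a1* had their highest counts in that sample. *Kera*, with 1 count there and in control replicate 1, *Dcn*, *Ptgds* and *Thy1* did not stand apart. *Dcn* had 5, 1 and 6 counts in controls and 15, 9 and 23 in *Ptch1*-ablated samples. The part of keratocyte markers in the lower *Chrnb3* of control replicate 3 was not tested. Immune markers, led by *Itgam*, summed to 125 to 166 TPM in controls and 153 to 207 TPM in *Ptch1*-ablated samples. Most of this was *Itgam* and *Cd68*. *Ptprc* had at most 9 counts in any sample, *Adgre1* and *Lyz2* at most 3 and *Cd3e* at most 2. *Cd74* went the other way from *Itgam* and *Cd68*, with overlapping groups (log2 fold change -0.45, edgeR adjusted p = 0.464). Conjunctival markers (most abundant *Gsta4*), Schwann cell markers (*Mal*, which made up most of that list) and blood vessel markers (*Tie1*) had 0 called genes, as had the immune list, against the 3.23% of all tested genes. Within the conjunctival list *Krt4* stood at 105, 152 and 223 TPM in controls and 898, 170 and 528 TPM in *Ptch1*-ablated samples, and *Krt19* at 85.6, 133 and 209 TPM against 587, 162 and 349.97 TPM, with overlapping groups (edgeR adjusted p = 0.0685 and 0.0793). *Krt8* of that list was lower in every *Ptch1*-ablated sample (log2 fold change -0.91, edgeR adjusted p = 0.0139), a change too small to be called. *Krt4*, *Krt19*, *Krt8*, *Krt18*, *Krt20*, *Avil* and *Syt1* were named after their values were seen. So were the other untested neuron genes, the keratocyte genes other than *Col1a2* and the immune genes other than *Itgam*. The part of these cell types in the *Chrnb3* values was not tested. In the corneal epithelium list *Krt14*, the keratin of basal and limbal cells, was called upward, from 534, 535 and 644 TPM to 5798, 3254 and 2420 TPM (log2 fold change 2.81).

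**Figure D5:**
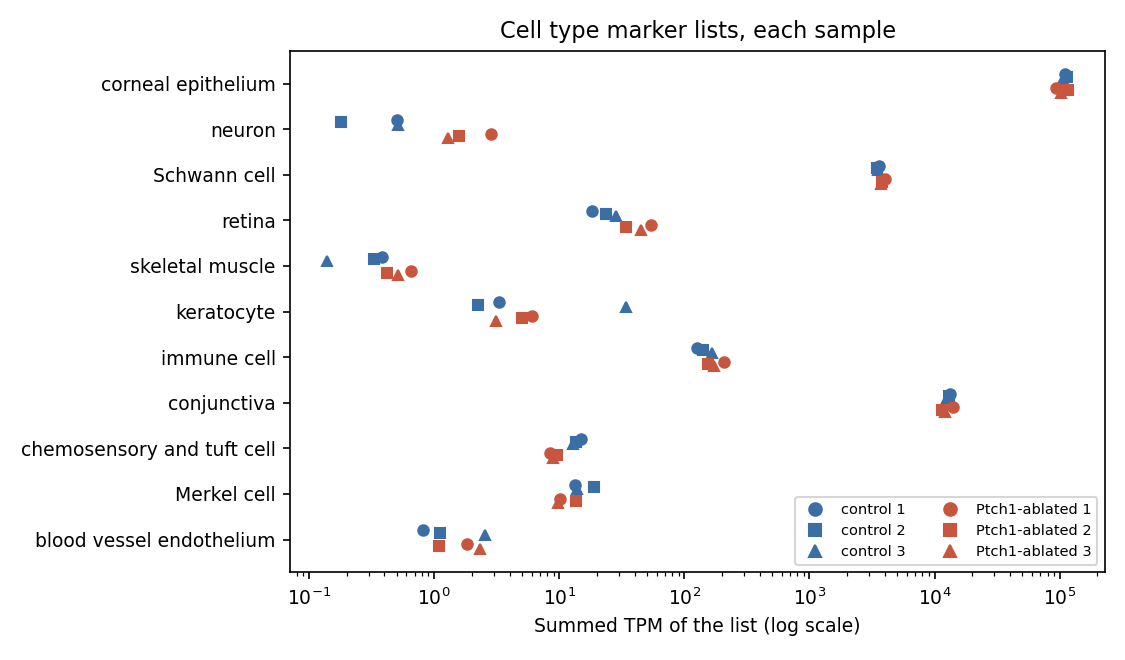
Summed TPM of each cell type marker list on a log axis in 3 control (blue) and 3 *Ptch1*-ablated samples (red), with symbols for replicates 1 to 3. Corneal epithelium markers are the highest list in every sample, neuron markers are lower in controls (0.180 to 0.510 TPM) than in *Ptch1*-ablated samples (1.28 to 2.87 TPM), and control replicate 3 stands out in the keratocyte list.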

How the data were processed

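Bulk RNA-seq of corneal epithelial cells covered 3 control and 3 *Ptch1*-ablated samples. Per the labels and the study's methods, the authors aligned clean reads with Bowtie2 2.2.5 and deposited RSEM 1.2.12 expected counts per gene, not scaled for depth, and TPM values, scaled within each sample for length and depth. The submitters' processing notes name mm9. The methods describe rRNA depletion and sequencing of DNA nanoballs, whereas an Illumina kit is named in the labels. The 6 FPKM columns and 6 columns of group averages were not used, and 0 columns belonged to other samples.

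Expected counts were rounded and tested with edgeR 4.0.16 (quasi-likelihood, TMM factors from 0.959 to 1.03, filterByExpr, group only) in R 4.3.3 over 12999 genes, with Benjamini-Hochberg adjustment over all of them. The standard error was taken from the size of the log2 fold change over the root of its F statistic. Replicates of a group differed by more than sampling noise (10.1 to 37.8 chi-square units for each degree of freedom), and whether they came from separate animals is given only as biological replicates in the methods. Levels between genes were compared in TPM. Every subunit was named whatever its value, with the called or abundant (at least 10 TPM) members of the cholinergic lists, the most abundant and the called marker genes, the genes beside detected subunits, and the 5 genes most like *Chrnb3*. The members and lists were chosen with earlier results of these data known. Gene order came from RefSeq (GRCm38.p6), in which 13 of 13 subunits matched by gene ID, and no coordinates were taken from it. On simulated data of this comparison, where 200 of 12920 genes moved 1.5 log2 units up or down, edgeR recovered 98.5%, and 1.01% of its calls were false. The moved genes were drawn only from those with a higher mean control count than any subunit but *Chrnb3* and *Chrnb2*. The share recovered therefore does not cover the other subunits. Each simulated gene took its spread from the trend over all genes, not from its own samples. Alternatives were DESeq2 1.42.0, limma-voom (limma 3.58.1), other size factors and filters, limma on TPM in log2 after adding 1 or 0.1, a replicate block, and each sample left out.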

Additional observations from a re-analysis of the deposited data

How the results depend on the processing

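The log2 fold change of *Chrnb3* ranged from -4.90 to -2.19 over 15 alternatives, a description since its values chose the family. For the same reason the number of called subunits supports nothing. It was 1, *Chrnb3*, and it was 0 with at least 10 counts in every sample, where *Chrnb3* did not enter the fit. The fits that left out 1 sample gave 0 to 1 called subunits, 0 without control replicate 2. They gave 0 to 1 called genes of the cholinergic and other Cys-loop lists. The gene was *Gabrb2* without *Ptch1*-ablated replicate 1 and *Gabrb1* without *Ptch1*-ablated replicate 3, each a GABA-A subunit gene. *Chrnb1* ranged from -0.27 to 0.043 in those fits, positive without control replicate 2. Of the 13 subunits, 13 had at least 1 count in some sample, 2 had 10 or more in every sample, 3 reached 1 TPM, and 5 to 6 were detected with 1 sample left out, 5 without *Ptch1*-ablated replicate 2, the 1 sample in which *Chrna2* reached 10.

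Over all genes, 420 were called (72.4% upward). limma on log2(TPM + 1) gave 234, or 168 with no filter on low TPM, and no minimum fold change gave 1822 (54.3% upward). Leaving out 1 sample gave 59 to 430, with 59 without control replicate 2, 250 without control replicate 1, 254 without control replicate 3 and 273 without *Ptch1*-ablated replicate 1. Called genes of these lists numbered 1 with DESeq2, 1 with at least 10 counts in every sample (both *Gabrb2*, a GABA-A subunit gene) and 2 with no minimum fold change (*Slc44a1* and *Psca*). The cause of these shifts was not tested. Samples with the same replicate number did not deviate together (correlations 0.0996, -0.0578 and 0.00617), and 3 of 6 correlated best with their own number. With a replicate block, 390 genes were called, and the value of *Chrnb3* was -4.08. Depth limits the precision of subunits under 10 counts.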
